A study of Mus musculus with 9 samples.

Results

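The genes described here are 8 chemokines of C2C12 myoblasts, Ccl2, Ccl7, Cxcl1, Cxcl2, Cxcl3, Cxcl5, Cxcl12 and Cx3cl1, taken from the deposited expression table wherever the Ensembl identifier of a gene carried 1 of these mouse symbols. All 8 were found, of 54307 genes in the table. C2C12 cells are myoblasts of a mouse line that form myotubes when they differentiate. RNA of 9 libraries was sequenced after enrichment of mRNA, 3 from cells given 25 mmol/L glucose together with 200 nmol/L liraglutide (HL group), 3 from cells given 25 mmol/L glucose (H group) and 3 from control cells (NC group), each after 48 h. Liraglutide, a drug related to the gut hormone glucagon-like peptide-1, activates the receptor of that hormone. The glucose concentration of the NC medium is not given in the sources used here, no mannitol library was analysed here, and the study says of its experiments in general that they were independently repeated, without naming these libraries, so p-values measure the spread among these libraries, which may be technical.

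Chemokines are small secreted proteins that bind G protein-coupled receptors and guide the movement of cells along a gradient. CC chemokines such as Ccl2 and Ccl7 attract monocytes through the receptor Ccr2, and the CXC chemokines with a Glu-Leu-Arg motif, among them Cxcl1, Cxcl2, Cxcl3 and Cxcl5, attract neutrophils through Cxcr2. Cxcl12 guides stem and progenitor cells, muscle progenitors included, through Cxcr4 and is also bound by the scavenging receptor Ackr3, while Cx3cl1 is made as a membrane-anchored protein that proteases release from the cell surface.

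The upstream sequences of 3 of the neutrophil-attracting genes and of Cxcl12 are shown because the first 3 share a run of letters, although the levels of Cxcl1 differed in pattern from those of Cxcl2 and Cxcl3, and Cxcl12 lacks it. Each covers 120 bases before the transcript start in RefSeq (build GRCm38.p6), 5′ to 3′, and capitals mark matches to the NF-kB consensus on either strand and to TATAAA.
Cxcl1 (chr5:90891125-90891244, + strand): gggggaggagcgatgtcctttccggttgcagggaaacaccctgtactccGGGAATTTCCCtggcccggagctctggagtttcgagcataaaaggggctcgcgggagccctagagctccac
Cxcl2 (chr5:90903779-90903898, + strand): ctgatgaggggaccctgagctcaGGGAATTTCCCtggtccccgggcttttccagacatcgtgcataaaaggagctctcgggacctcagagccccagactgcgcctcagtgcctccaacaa
Cxcl3 (chr5:90785981-90786100, + strand): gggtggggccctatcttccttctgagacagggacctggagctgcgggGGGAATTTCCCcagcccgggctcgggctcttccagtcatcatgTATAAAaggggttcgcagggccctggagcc
Cxcl12 (chr6:117168415-117168534, + strand): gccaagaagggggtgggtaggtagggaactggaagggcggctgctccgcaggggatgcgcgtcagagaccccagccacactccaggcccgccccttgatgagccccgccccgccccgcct
Promoter windows from 250 bases before to 50 bases after the start were found for 5 of the 8 genes, namely Cxcl1, Cxcl2, Cxcl3, Cxcl12 and Cx3cl1. The NF-kB consensus, a degenerate binding motif of the Rel family of transcription factors, matched in 3 of these 5 windows and in 4.51% of 32851 promoter windows of the same length. Cxcl1, Cxcl2 and Cxcl3 held the same 10 letters, GGGAATTTCC, starting at base -71, -97 and -73 from the transcript start, with an overlapping match on the other strand 1 base further on. These 10 letters, noticed after the sequences had been read, occurred in 29 of the 32851 windows (0.0883%), those 3 genes included. TATAAA matched in Cxcl3 and Cx3cl1 (13.6% of all windows, both strands searched), the GC box GGGCGG in Cxcl2, Cxcl12 and Cx3cl1 (35.7%), the tonicity-responsive enhancer consensus in Cxcl2 (4.96%), and the AP-1 motif TGANTCA in none of the 5 (7.81%). A match describes letters in a window and does not show that a factor was bound.

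The values are FPKM, which the study defines as fragments scaled to exon length and to mapped reads. In the values of single-transcript genes, the length that scaled them was shorter than the transcript by an estimated 262 to 285 bases. The fold changes are on the scale of log2(FPKM + 0.1), which understates changes of genes near 0. Depth, read off the smallest differences among the values of single-transcript genes, was 17.3 to 21.8 M reads in HL, 19.2 to 23.0 M in H and 21.1 to 21.2 M in NC, and it sets the size of 1 read, which for the single transcript of Ccl7 was 0.0826 to 0.107 FPKM. A single limma fit to the log2 values of the 9 libraries covered 13674 genes (FPKM 1 or more in 3 or more libraries), and a gene was called where the Benjamini-Hochberg adjusted p was under 0.05 and the log2 fold change was over 1 or under -1. Over all tested genes, 1402 were called higher and 786 lower in H against NC, so that 64.1% of calls were higher, and 76.8% after rescaling each library to TPM, which put the median log2 fold change over the tested genes at 0.15 in place of -0.04. In HL against H, 486 genes were called higher and 797 lower (37.9% of calls higher, 28.8% after rescaling to TPM). Over genes, the median of the SD among replicates (log2 values) was 0.0865 in HL, 0.171 in H and 0.0723 in NC. Of 10 myoblast markers 9 passed the filter, with 0 called higher and 1 lower in H against NC (10.3% and 5.75% of all tested genes) and 3 higher and 0 lower in HL against H (3.55% and 5.83%). Their summed FPKM, most of it from Vim, a filament protein that many cell types make, was 3271 to 3322 in HL, 2264 to 2357 in H and 2650 to 2681 in NC. Called in H against NC was Myod1, a myogenic transcription factor, which was lower (-1.29 on the log2 scale, adjusted p = 0.0059, and -0.88 and not called without H replicate 1). Called in HL against H were Cdh15, Msc and Chrna1, all higher (1.27, 1.62 and 1.13), of which Chrna1 was at 0.98 and not called without H replicate 2. In HL against NC 3 markers were called higher and 0 lower (6.3% and 2.41% of all tested genes), namely Myf5, Itga7 and Msc. By the adjusted p alone, 2 markers were higher and 5 lower in H against NC (27.1% and 33% of all tested genes). The 2 higher ones were Myf5 (0.62) and Itga7 (0.47), both named after their values were seen.

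In the NC libraries the order of levels was Cxcl5, Cxcl1, then Ccl2 and Ccl7, then Cxcl12 and Cx3cl1, with Cxcl3 and Cxcl2 under 0.5 FPKM. The ranges of the NC libraries did not overlap between neighbours in this order down to Cxcl3, whereas Cxcl3, at 0.379 to 0.445 FPKM, lay above Cxcl2, at 0 to 0.332 FPKM, by less than the spread of Cxcl2. Compared with the NC group, 4 of the 8 genes were called higher in H (Ccl2, Ccl7, Cxcl2, Cxcl3) and 1 was called lower (Cxcl5), where 10.3% and 5.75% of all tested genes were called higher and lower. Compared with the H group, 3 were called lower in HL (Ccl2, Cxcl2, Cxcl3) and 0 higher, where 5.83% and 3.55% of all tested genes were called. Of the 8 genes, 0 were called in HL against NC, where 6.3% of all tested genes were called higher and 2.41% lower. The median log2 fold change of the 8 genes was 1.05 in H against NC, -0.80 in HL against H and 0.07 in HL against NC, beside -0.04, 0.04 and -0.04 over all tested genes. Cxcl2 and Cxcl3 passed the filter on low values only through their H libraries, so they had to be higher in H to be tested, and of the other 6 genes 2 were called higher in H against NC and 1 lower in HL against H. Over those 6 genes the medians were 0.52 in H against NC, -0.68 in HL against H and 0.24 in HL against NC. Ccl2 and Cxcl2 are also among the genes that the study singled out from these same libraries, so they are no independent evidence of a direction. H against NC and HL against H share the H libraries, and the values of each comparison are given side by side.

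**Figure D1:**
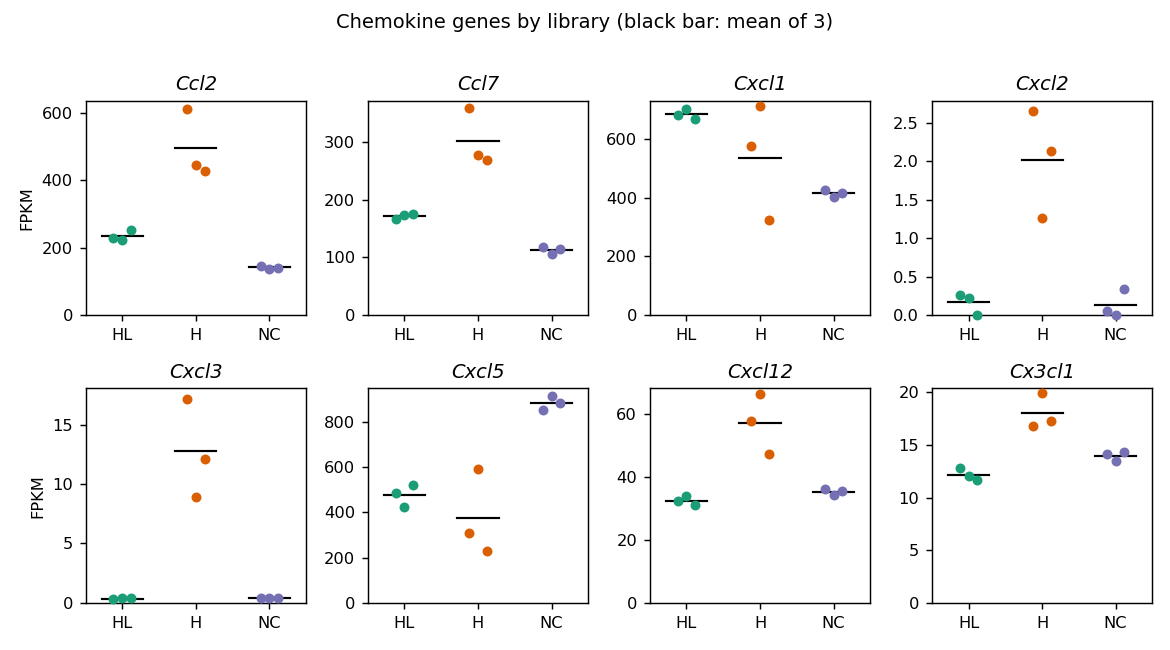
FPKM of the 8 chemokine genes (linear axes from 0), 1 point per library and a black bar at the mean of 3 libraries, for the HL, H and NC groups. Cxcl3 lay between 8.93 and 17.2 FPKM in the 3 H libraries and under 0.5 FPKM in the other 6, while Cxcl5 was highest in NC.

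Ccl2 and Ccl7, which attract monocytes, had their highest levels in the H libraries and intermediate ones in HL. Ccl2 (ENSMUSG00000035385) had 229.9, 221 and 252 FPKM in HL, 613, 444 and 426 FPKM in H and 147, 138 and 140.4 FPKM in NC. The 3 groups did not overlap, and H replicate 1 stood above the other H libraries. Ccl2 rose in H, with a mean of 494 ± 103 FPKM, against 142 ± 4.58 FPKM in NC (SD, n = 3 each), a log2 fold change of 1.78 (limma adjusted p = 2.67e-06, standard error 0.12). It fell in HL, with a mean of 234 ± 15.6 FPKM, against H (log2 fold change -1.06, standard error 0.12, adjusted p = 0.000139), a fold change close to the threshold that became -0.89 and was no longer called without H replicate 1. Against NC, Ccl2 had a log2 fold change of 0.72 in HL (adjusted p = 0.00115), under the fold threshold, with all 3 HL libraries above all 3 NC libraries.

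Ccl7 (ENSMUSG00000035373), a related ligand that also binds Ccr1 and Ccr3, had 166, 174 and 175.5 FPKM in HL, 360.3, 279 and 269 FPKM in H and 118, 107 and 114 FPKM in NC. Again the groups did not overlap and H replicate 1 was the highest. From the length of its transcript, shortened by that estimate, and the estimated depth, these values stand for 1642 to 1946 reads in HL, 2851 to 4360 in H and 1203 to 1323 in NC. Ccl7 rose in H against NC (log2 fold change 1.41, standard error 0.10, adjusted p = 3.35e-06). In HL against H its log2 fold change was -0.80 (adjusted p = 0.000218) and in HL against NC 0.61 (adjusted p = 0.00103), both under the fold threshold.

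The ratio of Ccl2 to Ccl7 was highest in the H libraries. Within a library, the ratio of Ccl2 to Ccl7 FPKM was 1.38, 1.27 and 1.43 in HL, 1.70, 1.59 and 1.58 in H and 1.24, 1.29 and 1.23 in NC. The H ratios lay above those of both other groups, which overlapped each other (exact two-sided permutation test p = 0.1 for H against NC and for HL against H, the smallest that 3 against 3 libraries allow, and p = 0.2 for HL against NC). Over all 9 libraries, the 3 genes, of 9847 tested at a mean of 5 FPKM or more, whose log2 values followed Ccl2 most closely were Ccl7 (Pearson r = 0.997), Tsc22d3 (r = 0.996), which encodes the glucocorticoid-induced leucine zipper, and Flcn (r = 0.995), which encodes folliculin. Tsc22d3 averaged 17.5 FPKM in HL, 32.2 in H and 11.8 in NC, and Flcn 11.3, 29.5 and 5.99 FPKM in the same groups. These correlations describe points that share libraries, depth and group means.

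The 4 neutrophil-attracting genes split into 3 patterns. Cxcl3 (ENSMUSG00000029379) had 0.308, 0.379 and 0.384 FPKM in HL, 17.2, 8.93 and 12.1 FPKM in H and 0.445, 0.379 and 0.383 FPKM in NC. The H libraries stood far above the other 6, which overlapped, so that Cxcl3 was close to its NC level in HL. It had the largest fold change of the 8 genes in both comparisons, except that Cxcl2 exceeded it in H against NC at a pseudocount of 0.01, and it rose in H against NC (log2 fold change 4.63, adjusted p = 6.16e-07, standard error 0.24) and fell in HL against H (log2 fold change -4.77, adjusted p = 2.33e-06, standard error 0.24). With a pseudocount of 1 in place of 0.1 these became 3.25 and -3.30, both still called. For HL against NC the 95% confidence interval of the log2 fold change ran from -0.68 to 0.41 (adjusted p = 0.665).

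Cxcl2 (ENSMUSG00000058427), known as macrophage inflammatory protein 2, followed the same pattern at a much lower level. It had 0.264, 0.224 and 0 FPKM in HL, 2.66, 1.27 and 2.14 FPKM in H and 0.0565, 0 and 0.332 FPKM in NC. The H libraries did not overlap with the others, and 1 HL and 1 NC library were listed at 0. Cxcl2 rose in H against NC (log2 fold change 3.43, adjusted p = 0.00188, standard error 0.68) and fell in HL against H (log2 fold change -3.16, adjusted p = 0.00444, standard error 0.68). At these levels the size of the change depended on the pseudocount, with 1.40 and -1.36 at a pseudocount of 1 and 4.99 and -4.49 at 0.01, although both calls held. Of the 31-base words in the annotated Cxcl2 transcripts, 7.59% also occurred in other genes, mostly Cxcl3, and for Cxcl3 the share was 5.46%, mostly with Cxcl2, so part of the Cxcl2 signal in H could have been assigned from Cxcl3 reads, which was not tested.

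Cxcl1 (ENSMUSG00000029380), also known as KC, had 684, 702 and 668 FPKM in HL, 576, 712 and 323 FPKM in H and 427, 404 and 415 FPKM in NC. The H libraries spread over more than the whole distance between the other groups, with replicate 2 above and replicate 3 below all of them. No change was called in H against NC (log2 fold change 0.30, 95% confidence interval -0.22 to 0.81, adjusted p = 0.289), and the value ranged from 0.05 without H replicate 2 (adjusted p = 0.823) to 0.62 without H replicate 3 (adjusted p = 0.000433, under the fold threshold). In HL against H the log2 fold change was 0.43 (adjusted p = 0.153), with 0.67 without H replicate 2 (adjusted p = 0.0206) and 0.10 without H replicate 3 (adjusted p = 0.382), the lowest and highest adjusted p of the alternatives run. In HL against NC it was 0.72 (standard error 0.23, adjusted p = 0.0267), under the fold threshold, with all HL libraries above all NC libraries. The spread of the H libraries enters this p through the single fit. The limma adjusted p was 6.11e-06 with HL and NC alone in the fit and 0.0664 without a filter. With 1 HL or NC library left out, it was 0.058 to 0.0702.

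Cxcl5 (ENSMUSG00000029371), known in mouse as LIX, was the most abundant of the 8 genes in NC and moved the other way. It had 483, 424.9 and 519 FPKM in HL, 307, 589.6 and 229.9 FPKM in H and 851, 913 and 884 FPKM in NC. All HL and H libraries lay below all NC libraries, and the HL values fell within the range of H. Cxcl5 fell in H against NC (log2 fold change -1.35, standard error 0.28, adjusted p = 0.00281). In HL against H its log2 fold change was 0.45 (95% confidence interval -0.19 to 1.09, adjusted p = 0.214), with 0.84 without H replicate 2 (adjusted p = 0.000841) and 0.16 without H replicate 3 (adjusted p = 0.614), the lowest and highest adjusted p of the alternatives run. In HL against NC it was -0.90 (standard error 0.28, adjusted p = 0.0265), under the fold threshold. Here too the H libraries enter the p, and the limma adjusted p was 7.27e-05 with HL and NC alone in the fit. It was 0.0578 without a filter and 0.0447 to 0.0728 with 1 HL or NC library left out.

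Cxcl1 and Cxcl5 were both highest in H replicate 2 and lowest in H replicate 3, and within H their ratio had a narrower relative range than either gene. The ratio of Cxcl5 to Cxcl1 FPKM was 0.706, 0.605 and 0.777 in HL, 0.533, 0.828 and 0.712 in H and 1.99, 2.26 and 2.13 in NC. In every HL and H library Cxcl1 exceeded Cxcl5, and in every NC library Cxcl5 exceeded Cxcl1 (exact two-sided permutation test p = 0.1 for HL and for H against NC, the smallest possible, and p = 1 for HL against H). The summed FPKM of the 8 genes overlapped between the groups, with 1569 to 1657 in HL, 1327 to 2122 in H and 1594 to 1610 in NC. Cxcl5 made up 27.1% to 31.3% of that sum in HL, 15.7% to 27.8% in H and 53.4% to 56.7% in NC. Ccl2 and Ccl7 together made up 24.6% to 25.8% in HL, 34.1% to 52.4% in H and 15.2% to 16.6% in NC.

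Cxcl12 and Cx3cl1 showed smaller changes than the called genes, none of them past the fold threshold. Cxcl12 (ENSMUSG00000061353), also called stromal cell-derived factor 1, had 32.2, 33.9 and 31.2 FPKM in HL, 57.8, 66.3 and 47.2 FPKM in H and 36.2, 34.2 and 35.5 FPKM in NC. The H libraries were above all others and the HL libraries were below NC by a small margin. The log2 fold change was 0.68 in H against NC (adjusted p = 0.000474), -0.80 in HL against H (adjusted p = 0.000312, standard error 0.11 for both) and -0.12 in HL against NC (95% confidence interval -0.36 to 0.12, adjusted p = 0.372). The 3 genes whose log2 values followed Cxcl12 most closely over the 9 libraries were Npy1r (r = 0.983), a neuropeptide Y receptor, Mmp3 (r = 0.977), the matrix protease stromelysin 1, and Rnf24 (r = 0.976), which encodes a RING finger protein. Mmp3, for example, averaged 27.2 FPKM in HL, 57.0 in H and 33.9 in NC.

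Cx3cl1 (ENSMUSG00000031778), or fractalkine, had 12.8, 12.1 and 11.7 FPKM in HL, 16.8, 19.9 and 17.3 FPKM in H and 14.2, 13.5 and 14.4 FPKM in NC. The 3 groups did not overlap. The log2 fold change was 0.36 in H against NC (adjusted p = 0.00351), -0.56 in HL against H (adjusted p = 0.000445, standard error 0.08 for both) and -0.20 in HL against NC (adjusted p = 0.0606). By the adjusted p alone, 6 of the 8 genes were higher in H against NC and 6 were lower in HL against H, the same 6 in both (Ccl2, Ccl7, Cxcl2, Cxcl3, Cxcl12 and Cx3cl1), where 27.1% and 21.7% of all tested genes passed. Cxcl5 alone was lower in H against NC by the adjusted p (33% of all tested genes), and 0 of the 8 genes were higher in HL against H by it or had all HL libraries above H (26.7% and 30.4% of all tested genes), although without H replicate 2 both Cxcl1 and Cxcl5 were higher by the adjusted p. In HL against NC, Ccl2, Ccl7 and Cxcl1 were higher and Cxcl5 was lower by the adjusted p (21.6% and 27.2% of all tested genes), and all HL libraries lay above NC in the first 3 genes and below NC in Cxcl5, Cxcl12 and Cx3cl1 (29.5% and 36.3% of all tested genes). Without a filter, Cxcl1 and Cxcl5 did not pass there (adjusted p = 0.0664 and 0.0578). With HL and NC alone in the fit, Cxcl12 and Cx3cl1 were lower by it as well (adjusted p = 0.0489 and 0.0162). In Ccl2, Ccl7, Cxcl2, Cxcl3, Cxcl12 and Cx3cl1 all 3 H libraries lay above all libraries of both other groups, as they did in 17% of all tested genes (29.7% had all H libraries above NC and 35.7% below, and 24.9% had all HL libraries below H). This order was fixed in advance for Cxcl2 and Cxcl3, which passed the filter only through H. What remains, here and by the adjusted p, is Ccl2, Ccl7, Cxcl12 and Cx3cl1 of the other 6 genes.

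**Figure D2:**
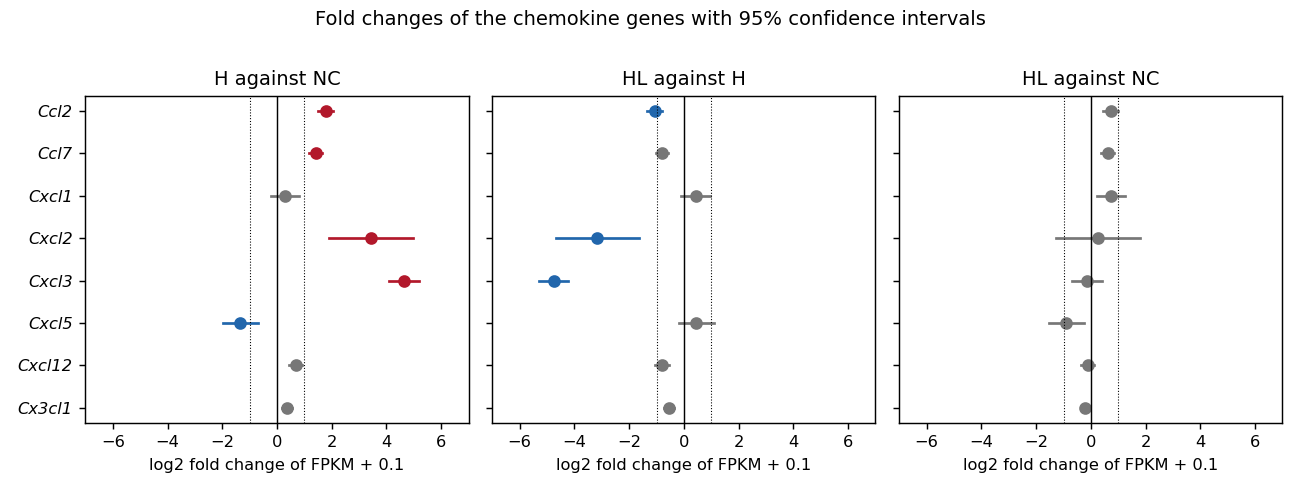
Log2 fold changes of FPKM + 0.1 for the 8 genes (points) with 95% confidence intervals (lines), in H against NC, HL against H and HL against NC. Red marks genes called higher, blue genes called lower and grey genes not called, and dotted lines mark the fold threshold. Cxcl3 lay at 4.63 in H against NC and at -4.77 in HL against H, and no gene was called in HL against NC.

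Most of these genes lie in 2 chromosomal clusters, and neighbours within a cluster did not share 1 pattern. In the order of the RefSeq annotation, chromosome 11 holds Ccl2, Ccl7, Ccl11, Ccl12 and Ccl8, and chromosome 5 holds Cxcl5, Ppbp, Pf4, Cxcl3, Cxcl15, Cxcl1 and Cxcl2. The non-members among them are named here for their place. On chromosome 11, Ccl8, a CC chemokine related to Ccl2, had 21.4, 27.6 and 26.2 FPKM in HL, 32.2, 38.3 and 24.8 FPKM in H and 8.51, 11.1 and 12.6 FPKM in NC. Ccl8 rose in H (1.55 on the log2 scale, adjusted p = 8.15e-05) and in HL (1.23, adjusted p = 0.000638) against NC, and HL and H overlapped. Ccl11, or eotaxin, lay between Ccl7 and Ccl12 at 0.642 to 1.47 FPKM in all 9 libraries, with overlapping groups, and Ccl12 did not pass the filter. On chromosome 5, Ppbp, a chemokine known from platelets and the neighbour of Cxcl5, had 16.6 to 20.2 FPKM in HL, 17.8 to 35.6 FPKM in H and 21.6 to 23.6 FPKM in NC, and its log2 fold change in H against NC was 0.09 (adjusted p = 0.733). Ppbp was also highest in H replicate 2 and lowest in H replicate 3, as Cxcl1 and Cxcl5 were. This order was not particular to the cluster. It held in Cxcl12, Ccl3 and Ccl8 as well, whereas Cxcl2 and Cxcl3 were lowest in H replicate 2. Pf4 and Cxcl15 did not pass the filter.

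**Figure D3:**
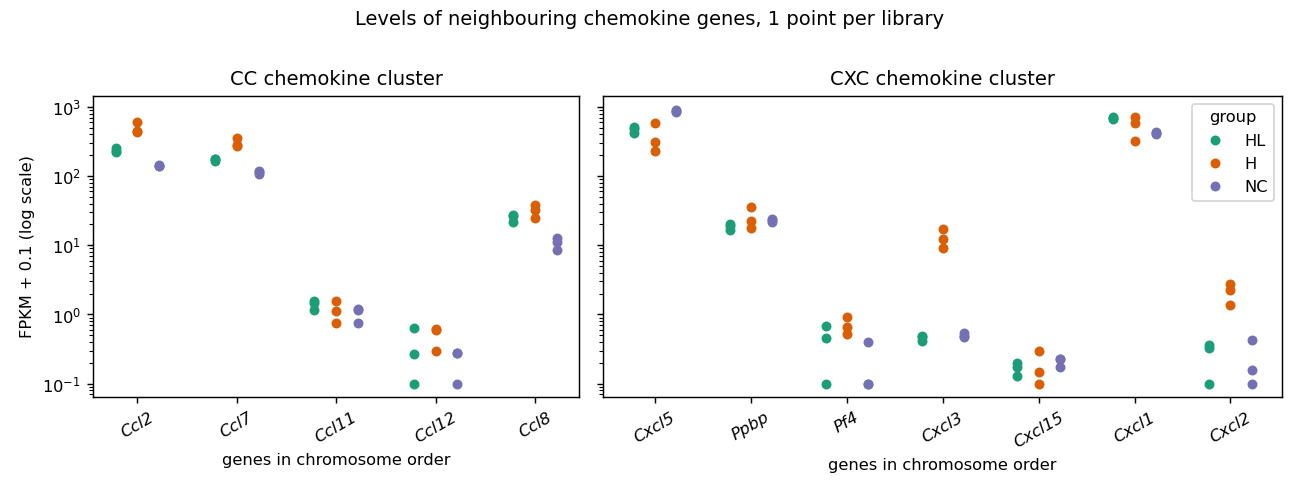
FPKM + 0.1 (log axis) of the chemokine genes of the CC cluster on chromosome 11 and of the CXC cluster on chromosome 5, in chromosome order, 1 point per library. Cxcl3 and Cxcl2 were higher in H than in HL and NC, Cxcl5 was highest in NC, and Ppbp overlapped between H and NC.

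The receptors of these ligands were measured in the same libraries. Ccr2, the receptor of Ccl2 and Ccl7, was listed at 0 in 8 libraries and at 0.0219 FPKM in H replicate 3. Cxcr2, the receptor of the neutrophil-attracting genes, did not exceed 0.113 FPKM and Cx3cr1, the receptor of Cx3cl1, did not exceed 0.139 FPKM in any library, and all 3 were below the filter. The receptors of Cxcl12 were present. Cxcr4 had 9.47, 8.70 and 10.1 FPKM in HL, 8.42, 8.39 and 9.05 FPKM in H and 2.41, 3.47 and 2.60 FPKM in NC. Cxcr4 rose against NC in H (1.59 on the log2 scale, adjusted p = 8.35e-06) and in HL (1.71, adjusted p = 2e-05), and HL and H overlapped, so that its groups were ordered differently from those of its ligand. Ackr3 had 41.5, 42.9 and 40.8 FPKM in HL, 18.3, 25.7 and 21.8 FPKM in H and 25.0, 23.4 and 23.7 FPKM in NC. All HL libraries were above the others, and the log2 fold change in HL against H was 0.94 (standard error 0.11, adjusted p = 0.000135), just under the fold threshold, and 1.06 without H replicate 2, where it was called. Of 24 receptors, 4 passed the filter, of which 2 were called higher in H against NC, 1 higher and 1 lower in HL against H and 2 higher in HL against NC. The shares of all tested genes were 10.3% called higher in H against NC, 3.55% higher and 5.83% lower in HL against H, and 6.3% higher in HL against NC. Ccr1, a receptor that binds Ccl7 and Ccl3, had 0.771, 0.797 and 0.739 FPKM in HL, 7.49, 6.28 and 6.47 FPKM in H and 1.11, 1.39 and 1.42 FPKM in NC. It rose in H against NC (log2 fold change 2.29, adjusted p = 1.87e-06) and fell in HL against H (log2 fold change -2.97, adjusted p = 2.17e-06). Cxcr6, the receptor of Cxcl16, passed the filter only through its HL libraries, so it had to be higher in HL to be tested. It was called higher in HL against H (log2 fold change 1.45, adjusted p = 0.00138), with 1.75 to 2.74 FPKM in HL and 0.562 to 0.864 FPKM in H, and was at 0.85 and not called at a pseudocount of 1.

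Of 30 other chemokine ligands, 24 were above 0 in some library and 10 passed the filter, of which 4 were called higher and 0 lower in H against NC, 0 higher and 1 lower in HL against H, and 4 higher and 1 lower in HL against NC. Over all tested genes, 10.3% were called higher and 5.75% lower in H against NC, 3.55% and 5.83% in HL against H, and 6.3% and 2.41% in HL against NC. The median log2 fold changes of the 10 ligands were 0.72, -0.30 and 0.63 in these comparisons, beside -0.04, 0.04 and -0.04 over all tested genes. Ccl3, which attracts leukocytes through Ccr1, had 7.03, 8.35 and 7.85 FPKM in HL, 6.80, 11.1 and 2.57 FPKM in H and 0.859, 0.947 and 1.06 FPKM in NC. Ccl3 rose against NC in H (2.49 on the log2 scale, adjusted p = 0.000685) and in HL (2.90, adjusted p = 0.000497), with HL inside the range of H, a pattern unlike that of Cxcl3. Ccl4, a close relative of Ccl3, rose in H against NC (log2 fold change 2.29, adjusted p = 0.00176) at 0.792 to 1.91 FPKM in H and 0.121 to 0.245 FPKM in NC, and the value was 0.99 and not called at a pseudocount of 1. Ccl4 reached 1 FPKM in 2 H, 1 HL and 0 NC libraries, so the libraries that let it pass the filter had to lie above NC. In HL, at 0.44 to 1.35 FPKM, Ccl4 was also called higher against NC (1.53, adjusted p = 0.019), with 0.58 at a pseudocount of 1, 1.15 without HL replicate 2 and 1.32 without NC replicate 1, none of these called. Cxcl16, a membrane-anchored chemokine like Cx3cl1, had 1.65, 1.24 and 1.80 FPKM in HL, 4.20, 4.19 and 4.38 FPKM in H and 1.40, 1.32 and 1.93 FPKM in NC. Cxcl16 rose in H against NC (log2 fold change 1.42, adjusted p = 0.000137) and fell in HL against H (log2 fold change -1.41, adjusted p = 0.000281). Chosen after their values were seen, the other genes called in HL against NC were Cxcl10, a ligand of Cxcr3, at 1.14 on the log2 scale (adjusted p = 0.000831), and Ccl5, which attracts T cells, at -1.33 (adjusted p = 0.000233). In H against NC, Cxcl10 was at 0.68 (adjusted p = 0.00953) and Ccl5 at -0.98 (adjusted p = 0.000751), under the fold threshold. In HL against H they were at 0.46 (adjusted p = 0.0594) and -0.35 (adjusted p = 0.109).

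**Figure D4:**
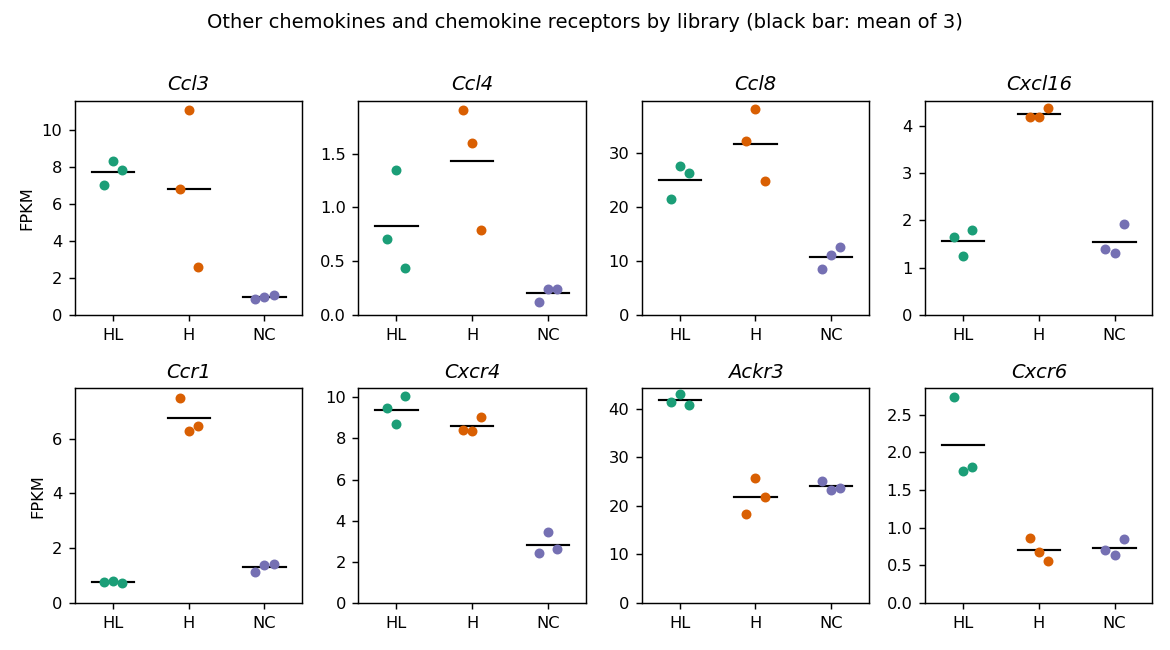
FPKM (linear axes from 0) of 4 other chemokine ligands and 4 chemokine receptors, 1 point per library and a black bar at the mean of 3, for the HL, H and NC groups. Cxcl16 and Ccr1 were higher in H than in HL and NC, Ccl3 and Cxcr4 were lowest in NC, and Ackr3 and Cxcr6 were highest in HL.

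Because chemokines draw blood cells and are made by them, markers of other cell types were read in the same libraries. Of 13 macrophage markers, 11 stayed under 1 FPKM in every library, 4 of them (C1qa, C1qb, C1qc and Tyrobp) at 0 throughout, and the defining marker Ptprc, which encodes CD45, did not exceed 0.0219 FPKM. The summed FPKM of the list was 19.6 to 21 in HL, 106 to 169 in H and 5.64 to 6.92 in NC. This sum rested on Csf1r, the receptor of colony-stimulating factor 1, with 0.249 to 0.282 FPKM in HL, 91.5 to 149 FPKM in H and 0.311 to 0.686 FPKM in NC, and on Cd68, a lysosomal protein, with 18.3 to 19.5 FPKM in HL, 13.3 to 20.0 FPKM in H and 4.31 to 5.58 FPKM in NC. Csf1r, which like Cxcl2 and Cxcl3 passed the filter only through its H libraries and so had to be higher there, had log2 fold changes of 7.85 in H against NC and -8.40 in HL against H. The 7 neutrophil markers summed to 1.51 to 2.99 FPKM in HL, 2.50 to 3.75 in H and 2.80 to 3.06 in NC, with 6 of them under 1 FPKM everywhere, and all 5 lymphocyte markers stayed under 1 FPKM. The 5 endothelial markers summed to 1.43 to 1.55 FPKM in HL, 1.99 to 5.14 in H and 0.399 to 0.747 in NC. Cdh5, the cadherin of endothelial junctions, was the 1 tested marker of that list and again passed only through H, with 0.571 to 0.642 FPKM in HL, 1.13 to 3.40 FPKM in H and 0.229 to 0.28 FPKM in NC, and log2 fold changes of 2.63 in H against NC and -1.65 in HL against H (-0.98 and not called at a pseudocount of 1). The 5 fibroblast markers summed to 572 to 588 FPKM in HL, 300.3 to 518 in H and 712 to 726 in NC, most of it from the collagen gene Col3a1. Another collagen gene of that list, Col1a1, fell in H against NC (log2 fold change -3.12, adjusted p = 3.79e-07), with 10.1 to 10.2 FPKM in HL, 6.34 to 10.2 FPKM in H and 66.6 to 68.2 FPKM in NC. Dcn of the same list went the other way in H against NC (log2 fold change 0.80, adjusted p = 0.000263). Col3a1 was at -0.90 and Pdgfra at -0.01 there, and none of these was called. The part of these markers in the chemokine levels was not tested, and in RNA of whole cultures fewer cells of a type and less RNA per cell cannot be told apart.

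Genes of the NF-kB system, whose factors bind the consensus matched in Cxcl1, Cxcl2 and Cxcl3, were read from a list of 20. Of these, 18 passed the filter, with 3 called higher and 1 lower in H against NC (10.3% and 5.75% of all tested genes), 0 higher and 1 lower in HL against H (3.55% and 5.83%), and 3 higher and 0 lower in HL against NC (6.3% and 2.41%), with medians of 0.20, -0.09 and 0.04. Traf1, an adaptor of tumour necrosis factor receptors, had 3.77, 3.12 and 3.06 FPKM in HL, 9.91, 7.43 and 6.75 FPKM in H and 0.653, 1.64 and 0.858 FPKM in NC. It rose in H against NC (log2 fold change 2.90, adjusted p = 2.42e-05) and fell in HL against H (log2 fold change -1.24, adjusted p = 0.00615), with the groups in the order of Ccl2. Nfkbia, which encodes the inhibitor that holds NF-kB in the cytoplasm, had 167, 163 and 168 FPKM in HL, 97.6, 102 and 72.9 FPKM in H and 37.9, 37.5 and 37.6 FPKM in NC. It rose in H against NC (log2 fold change 1.25, adjusted p = 1.12e-05) and was highest in HL (log2 fold change 2.14 against NC, adjusted p = 2.89e-06, and 0.88 against H, adjusted p = 0.000204), unlike Ccl2, Cxcl2 and Cxcl3. Tnfaip3, which encodes the inhibitor A20, rose in H against NC (1.33 on the log2 scale, adjusted p = 3.95e-06) and in HL against NC (1.66, adjusted p = 5.58e-06). Bcl3, an atypical inhibitor, fell in H against NC (log2 fold change -1.17, adjusted p = 0.000358), and was at -0.98 and not called after rescaling to TPM.

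Genes that act on chemokine mRNA or protein were read beside the same shares of all tested genes. Of 8 factors of AU-rich mRNA decay and stability, 1 was called higher and 0 lower in H against NC, 0 were called in HL against H, and 1 was called higher in HL against NC, where 10.3% and 6.3% of all tested genes were called higher in H and in HL against NC. This was Zfp36, which encodes tristetraprolin, a protein that destabilises cytokine mRNA, with 37.4, 38.4 and 40.1 FPKM in HL, 51.2, 41.0 and 36.9 FPKM in H and 8.69, 9.28 and 8.06 FPKM in NC. Zfp36 rose against NC in H (2.29 on the log2 scale, adjusted p = 4.41e-07) and in HL (2.14, adjusted p = 3.08e-06), and HL and H overlapped. Of 9 proteases that cut chemokines, 8 passed the filter, with 1 called higher in H against NC, 0 called in HL against H and 1 called higher in HL against NC. Beside both lists, 10.3% of all tested genes were called higher and 5.75% lower in H against NC. The shares were 3.55% and 5.83% in HL against H, and 6.3% and 2.41% in HL against NC. The protease called higher in H against NC was Mmp9, a gelatinase, at 1.66 to 2.30 FPKM in H and 0.800 to 0.978 FPKM in NC (log2 fold change 1.01, adjusted p = 0.00274), a call that was lost at a pseudocount of 1 and without H replicate 2 or NC replicate 1 (0.62, 0.88 and 0.94). Mmp9 reached 1 FPKM in 3 H, 2 HL and 0 NC libraries, so the libraries that let it pass the filter had to lie above NC. The protease called higher in HL against NC was Anpep, an aminopeptidase, with a log2 fold change of 1.26, named after its value was seen. Adam10, named for its part in the shedding of Cx3cl1, had 39.5, 42.0 and 39.2 FPKM in HL, 26.0, 32.9 and 32.5 FPKM in H and 43.5, 43.9 and 44.9 FPKM in NC. Its log2 fold change was -0.54 in H against NC (adjusted p = 0.000584) and 0.41 in HL against H (adjusted p = 0.00452), under the fold threshold and in the direction opposite to that of Cx3cl1 in each.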

How the data were processed

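RNA of 9 C2C12 libraries (3 groups of 3, grouped by GEO's sample labels) was sequenced on an Illumina HiSeq instrument by the authors, who trimmed the reads, and the submitters' processing notes name HISAT2 (version 2.1.0), StringTie (version 1.3.3b) and mm39. The deposited values are FPKM per gene, computed by the authors. The sources differ on the genome and on the quantifier, the identifiers are those of mouse Ensembl, and strandedness of the counting is not given in the sources used here. No annotated exon of another gene overlapped the 8 genes. FPKM are not counts, so no count test was run, whereas the authors compared groups with DESeq2.

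Here log2(FPKM + 0.1) was tested with limma (version 3.58.1, statmod 1.5.0, R 4.3.3), with a variance trend and the robust option, in 1 fit with 6 residual degrees of freedom. Depth was estimated from 6982 genes with 1 transcript, where 99.6% of low values were within 0.1 of whole reads. It may be a scaled size rather than the library total, and the reads of genes with several transcripts could not be recovered, so no counting intervals are given. Other steps used Python 3.11.15, pandas 2.3.3, NumPy 2.4.6 and matplotlib 3.10.9. The fit was tested on simulated data. No column of the table was left unused.

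The 8 genes, the lists and the rule for named genes were chosen with earlier results of these data known. The rule takes the 8 genes, the receptors Ccr2, Cxcr2, Cxcr4, Ackr3 and Cx3cr1, up to 4 called members of each other list with the largest change, and the 3 genes closest to Ccl2 and to Cxcl12, and exceptions are named as such. Results were recomputed with each library left out in turn, a replicate block, pseudocounts of 1 and 0.01, no filter or a mean FPKM of 5 as the filter, TPM rescaling, median centring, group variance weights, the robust option off, the compared groups alone in the fit, and the adjusted p without a fold threshold. Real-time PCR and protein assays of the study were not used here.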

Additional observations from a re-analysis of the deposited data

How the results depend on the processing

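Over the 8 chemokine genes, the counts of calls in H against NC and HL against H moved by more than 1.5 times under 2 alternatives. With a mean FPKM of 5 as the filter, Cxcl2 and Cxcl3 were not tested, and 2 genes were called higher in H against NC in place of 4 and 1 was called lower in HL against H in place of 3. By the adjusted p alone, 6 were lower in HL against H, and in HL against NC 3 were higher and 1 was lower, in place of 0 and 0. Leaving out 1 library at a time gave 2 to 3 genes lower in HL against H (2 without H replicate 1, where Ccl2 was at -0.89), 4 higher and 1 lower in H against NC, and 0 in HL against NC. The log2 fold change of Cxcl2 in HL against NC changed sign without HL replicate 1 (-0.07) and without NC replicate 2 (-0.19) and reached 0.86 without NC replicate 3, where the value with all libraries was 0.27 and not called. Among the neighbours, Ppbp in H against NC ran from -0.19 without H replicate 2 to 0.31 without H replicate 3, and Ccl11 from -0.14 without H replicate 2 to 0.40 without H replicate 1, with -0.10 without NC replicate 1, none of them called. Cxcl10 in HL against NC was 0.87 and not called at a pseudocount of 1.

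Over all tested genes, a pseudocount of 1 gave 256 genes higher in HL against H, and 446 higher and 198 lower in HL against NC. Without a filter 2711 were higher in H against NC, 1606 lower in HL against H and 622 lower in HL against NC. With a mean FPKM of 5, 517 were higher in H against NC, 255 higher and 270 lower in HL against H, and 306 higher and 150 lower in HL against NC. By the adjusted p alone, 3711 were higher and 4513 lower in H against NC, 3652 and 2967 in HL against H, and 2957 and 3717 in HL against NC. The share of calls that were higher in H against NC, 64.1%, was 48.5% with a mean FPKM of 5 and 45.1% by the adjusted p alone, and that of HL against H, 37.9%, was 48.6%, 26.9% without a filter and 55.2% by the adjusted p alone. That of HL against NC, 72.3%, was 44.3% by the adjusted p alone. The causes of these shifts were not tested beyond the number of genes each setting tests.

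Deviations of libraries with the same replicate number correlated at -0.04 to 0.09, and those with different numbers at -0.07 to 0.06. In H against NC the same-number values (0.06, 0.09 and 0.05) lay above the different-number ones (-0.07 to 0.01). These small values do not settle whether the numbers pair libraries. With the number as a replicate block, 4 of the 8 genes were called higher and 1 lower in H against NC, 3 lower in HL against H and 0 in HL against NC, as without the block. Precision is limited at low levels, such as those of Cxcl2 outside H, all under 0.35 FPKM.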

Other observations

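Among 20 inflammatory cytokine, receptor and adhesion genes, 15 passed the filter, with 5 called higher and 1 lower in H against NC, 3 higher and 7 lower in HL against H, and 3 higher and 2 lower in HL against NC. The shares of all tested genes called higher and lower were 10.3% and 5.75% in H against NC, 3.55% and 5.83% in HL against H, and 6.3% and 2.41% in HL against NC. Ptgs2, the inducible cyclooxygenase, had 61.5, 53.5 and 62.4 FPKM in HL, 438, 346 and 418 FPKM in H and 79.8, 80.7 and 84.5 FPKM in NC. It rose in H against NC (log2 fold change 2.29, limma adjusted p = 1.87e-07) and fell in HL against H (log2 fold change -2.75, adjusted p = 2.36e-07). Tlr2, a receptor of bacterial lipoproteins, rose in H against NC (log2 fold change 2.14, adjusted p = 8.34e-07) and fell in HL against H (-1.75, adjusted p = 8.12e-06). The study had singled out Ptgs2 and Tlr2 from these libraries. Tslp, a cytokine of epithelial and stromal cells, rose in H against NC (log2 fold change 2.88, adjusted p = 4.12e-06) and fell in HL against H (-1.51, adjusted p = 0.000419). Il11, a cytokine of the interleukin-6 family, fell in HL against H (log2 fold change -1.98, adjusted p = 1.39e-05), with 1.39 to 1.91 FPKM in HL, 5.49 to 6.95 FPKM in H and 4.54 to 4.99 FPKM in NC.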
